A study of Mus musculus with 8 samples.

Results

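The alpha class glutathione S-transferases were followed through 8 RNA-seq libraries from melanocyte stem cells of mice, the hair follicle cells that renew pigment cells. The class comprised Gsta1, Gsta2, Gsta3, Gsta4, Gm3776 and Gm10639, 6 genes taken by symbol from the 54418 genes in the deposited tables. The class was selected on the counts of these same libraries, with its lower sum in one genotype known, so their levels and changes are given as a description and support nothing. Of these libraries, 4 came from mice with floxed Bmi1 (Bmi1fl/fl) that also carried Tyrosinase-Cre, called Bmi1-deleted below, and 4 from Bmi1fl/fl mice without Cre, called control. Mice of both genotypes also carried Dct-rtTA and TRE-H2B-GFP, which mark cells that use the pigment gene Dct with a nuclear GFP under doxycycline, were of mixed C57Bl-6;129Sv strain and ate doxycycline pellets. Live, GFP-positive cells without autofluorescence were sorted from dorsal skin at postnatal day 21. Tyrosinase-Cre is used to delete genes in the pigment lineage, and Bmi1 encodes a subunit of a Polycomb complex that silences genes. The labels do not say that each replicate was a separate mouse, so p-values measure the spread between these libraries only, part of which may be technical. Each genotype held libraries of both sexes, judged by Xist and Y-linked counts, and so came from more than 1 mouse. Bmi1-deleted library 1 and control libraries 1 and 3 were female, and the other libraries male. The libraries numbered 3 thus differed in sex as well as genotype.

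Libraries held 8882656 to 10368174 counts. Counts of Bmi1 over the whole gene were 627, 713, 626 and 607 in Bmi1-deleted libraries 1 to 4, against 796, 743, 705 and 859 in control libraries 1 to 4. These counts include exons outside the floxed stretch, whose position was not looked up, so they do not check the deletion. Cdkn2a, a locus that Bmi1 silences, had 85, 50, 38 and 46 counts in Bmi1-deleted libraries and 0 in each control library. All 8 melanocyte markers, among them Dct, Pmel and Mitf, were counted in every library, and so were the collagen genes of fibroblasts, described with the class below.

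Alpha class transferases are cytosolic enzymes that join glutathione to reactive, electrophilic molecules, and some of them also reduce lipid hydroperoxides. The tripeptide glutathione is the main small thiol of cells, and the conjugates are pumped out and broken down by other enzymes. In rodent liver, genes of this class are induced by electrophiles through the Nrf2 pathway and by aromatic hydrocarbons through the Ahr pathway. Gsta4 prefers hydroxynonenal, an aldehyde formed when membrane lipids are oxidised, and mouse Gsta3 is known for detoxifying the epoxide of aflatoxin. Pigment cells meet oxidants while they make melanin, since its synthesis releases peroxide and quinones.

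Of the 6 genes, 5 lie in a cluster on chromosome 9 (mm10, GENCODE M21). Gsta4 spans chr9:78182774-78209349 and Gsta1 chr9:78230656-78242684. Gm3776 follows at chr9:78257129-78269166 and Gm10639 at chr9:78289923-78305525, all 4 on the plus strand. Gsta2 closes the row on the minus strand at chr9:78331018-78355788. Gsta3 is apart, on the plus strand of chromosome 1 at chr1:21240589-21265661. Gm3776 and Gm10639 have only the names of predicted genes.

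Gsta1, Gm3776, Gm10639 and Gsta2 are near copies of each other, which decides how far their counts can be told apart. Along the aligned coding sequences (mafft), 24 of 669 columns varied among these 4 genes. The stretch below, coding bases 577 to 666, is shown because it holds 7 of those columns in 90 bases. All 4 genes are on chromosome 9, the sequences run 5′ to 3′ on the coding strand, and capitals mark bases that differ from Gsta1.
Gsta1 coding window: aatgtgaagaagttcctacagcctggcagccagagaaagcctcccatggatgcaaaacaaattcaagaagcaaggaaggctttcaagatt
Gm3776 coding window: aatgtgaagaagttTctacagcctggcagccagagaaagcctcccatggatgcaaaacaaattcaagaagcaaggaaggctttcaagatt
Gm10639 coding window: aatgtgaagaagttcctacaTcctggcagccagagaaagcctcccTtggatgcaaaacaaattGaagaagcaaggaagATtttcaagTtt
Gsta2 coding window: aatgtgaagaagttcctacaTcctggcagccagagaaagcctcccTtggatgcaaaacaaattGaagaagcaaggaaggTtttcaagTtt
Gm3776 differed from Gsta1 by 1 base in this window and by 2 over the whole coding sequence, an identity of 99.7%. In the same window Gsta2 differed from Gsta1 by 5 bases and Gm10639 by 6, and Gsta2 and Gm10639 were 98.5% identical to each other over their coding sequences. Gsta3 shared 74.2% to 75.7% of its coding bases with the 4 near copies, and Gsta4 shared 65.9% to 67.3% with each of the other 5 genes.

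The consequence for counting was measured by splitting every annotated transcript into overlapping words of 31 bases. Only 4.38% of the words of Gm3776 (37 of 844) and 7.14% of those of Gsta1 (66 of 924) were found in no other gene. The share was 39.3% for Gsta2, 37.6% for Gm10639, 97.3% for Gsta3 and 100% for Gsta4. Gm3776 shared 87.9% of its words with Gsta1. How reads were divided between these 2 genes is therefore uncertain, and so is the division between Gsta2 and each of the other near copies, since Gsta2 shared 44.7% of its words with Gsta1 and 43.6% with Gm10639. The sum over all 4 near copies does not depend on that division, while sums of 2 of them do in part. These sums are given beside the single genes. Gsta4 shared none of its words with another gene.

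**Figure D1:**
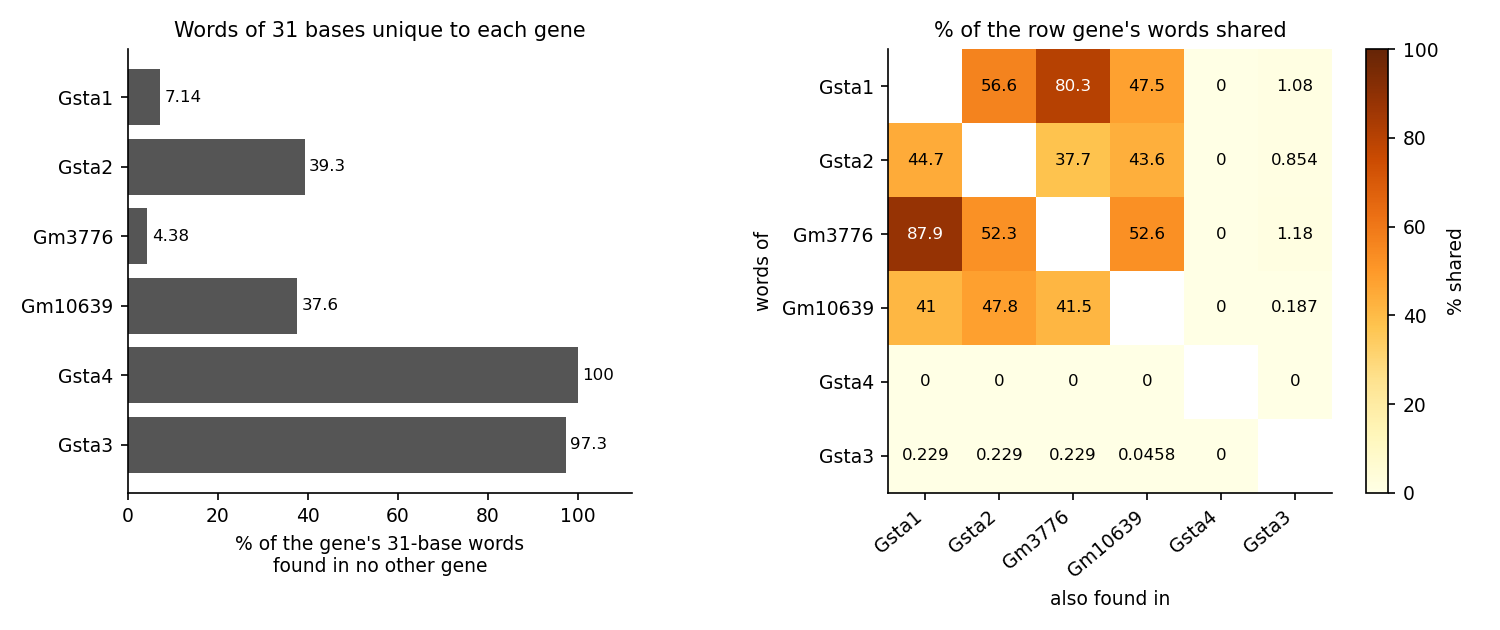
Left, the percentage of each gene's 31-base words found in no other annotated gene, from 4.38% for Gm3776 to 100% for Gsta4. Right, the percentage of the row gene's words that also occur in the column gene, with the darkest cells between Gsta1 and Gm3776 (80.3% and 87.9%).

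The promoters of the near copies are shown because the summed counts of these genes were lower in Bmi1-deleted cells, as described after them. Each sequence, from RefSeq (GRCm38.p6, the assembly of mm10), runs 5′ to 3′ from 250 bases before the RefSeq start to 30 after it. RefSeq and GENCODE starts differ, and that of Gsta2 in RefSeq lies inside the GENCODE span given above. Capitals mark the 5 runs of at least 12 bases, 73 bases in all, that the 4 promoters have in common. They cover chr9:78230419-78230698 (Gsta1, plus strand), chr9:78256879-78257158 (Gm3776, plus), chr9:78289678-78289957 (Gm10639, plus) and chr9:78347116-78347395 (Gsta2, minus).
Gsta1 promoter: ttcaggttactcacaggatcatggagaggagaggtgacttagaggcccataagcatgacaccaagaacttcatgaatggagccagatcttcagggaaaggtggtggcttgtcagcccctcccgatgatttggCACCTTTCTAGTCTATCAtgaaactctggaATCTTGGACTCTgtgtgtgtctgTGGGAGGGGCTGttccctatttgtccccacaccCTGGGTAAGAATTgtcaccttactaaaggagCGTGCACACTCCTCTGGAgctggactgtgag
Gm3776 promoter: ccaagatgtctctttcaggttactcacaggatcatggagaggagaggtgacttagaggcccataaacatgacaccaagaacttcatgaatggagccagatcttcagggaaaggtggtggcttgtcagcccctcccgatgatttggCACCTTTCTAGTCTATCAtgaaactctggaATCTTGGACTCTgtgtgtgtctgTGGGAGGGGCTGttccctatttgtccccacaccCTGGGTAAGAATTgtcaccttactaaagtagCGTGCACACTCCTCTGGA
Gm10639 promoter: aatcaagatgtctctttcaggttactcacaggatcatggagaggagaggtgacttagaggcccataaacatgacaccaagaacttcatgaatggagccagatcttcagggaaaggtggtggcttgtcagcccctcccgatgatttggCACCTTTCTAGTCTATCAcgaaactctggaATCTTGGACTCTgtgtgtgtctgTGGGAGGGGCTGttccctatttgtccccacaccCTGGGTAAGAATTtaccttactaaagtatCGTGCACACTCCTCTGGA
Gsta2 promoter: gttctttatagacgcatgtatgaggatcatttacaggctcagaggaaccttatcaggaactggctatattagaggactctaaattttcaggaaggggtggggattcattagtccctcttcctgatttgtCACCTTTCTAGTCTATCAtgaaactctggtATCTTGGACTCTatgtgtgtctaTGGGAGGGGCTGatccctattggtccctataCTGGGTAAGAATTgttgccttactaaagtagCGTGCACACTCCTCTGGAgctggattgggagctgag
Over 300 bases, the promoters of Gm3776 and Gm10639 were 97.4% identical and those of Gsta1 and Gm3776 90.7%, while Gsta1 and Gsta2 shared 74.6%. These percentages count gaps, also those at the ends where 2 windows start at different points. The alignment had 302 columns for Gm3776 and Gm10639 and 313 for Gsta1 and Gm3776. The lower percentage of Gsta1 and Gm3776 thus comes mostly from where the windows start. The order of these 2 percentages does not show which promoters are more alike. The Gsta3 promoter shared 51.4% to 52.9% with these 4, and a Gsta4 promoter was not used here. Letters of known motifs were searched on both strands of the 300-base windows, with overlaps allowed. The core of the aromatic hydrocarbon response element, GCGTG, overlapped the last shared run in Gsta1, Gm3776 and Gsta2, was not in the windows of Gm10639 and Gsta3, and occurred in 32.4% of 32851 promoters. The antioxidant response element, written TGACNNNGC, was in the Gsta3 window only and in 12.4% of all promoters. The MITF-type E-boxes CATGTG and CACGTG, in 14.2% and 7.15% of all promoters, were in none of the 5. A match is a run of letters and not a site, and no match says only that these letters are not in this window.

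Together the 6 genes were about 3 times lower in Bmi1-deleted cells. Their summed level was 20.3, 18.5, 45.04 and 38.1 CPM (counts per 1000000 of the library, with library sizes scaled by TMM) in Bmi1-deleted libraries 1 to 4, against 61.0, 58.2, 124.9 and 126.9 CPM in control libraries 1 to 4. Every Bmi1-deleted library was below every control library, and in both genotypes replicates 1 and 2 held less than replicates 3 and 4. The means were 30.5 ± 13.1 CPM in Bmi1-deleted and 92.7 ± 38.3 CPM in control libraries (SD, n = 4 each), so that Bmi1-deleted cells held 32.9% of the control mean. Set against the control library of the same number, the percentages were 33.3, 31.8, 36.1 and 30.01. In sorted bulk RNA, fewer cells of a type that uses a gene and less RNA of it per cell cannot be told apart. The fitted log2 change of the sum was −1.61 with a standard error (SE) of 0.38 (edgeR quasi-likelihood test, adjusted p = 0.244 over all genes). With the replicate number as a block it was −1.61 with an SE of 0.13 (edgeR, adjusted p = 2.02e-05). That fit takes libraries of the same number as pairs, which no label states.

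Of the 6 genes, 5 had enough counts to be tested and all 5 had a negative log2 change, beside 49.3% of the 16011 genes tested. At an edgeR adjusted p under 0.05, 0 of the 5 passed, beside 0.0937% of all tested genes in either direction and 0.00625% lower. With the replicate block 2 of the 5 passed, both lower, beside 0.706% of all tested genes lower and 2.41% in either direction. The groups did not overlap for 3 of the 5 genes, with Bmi1-deleted lower, beside 2.39% of all tested genes. The median log2 change was −1.47 over the 5 genes and 0.01 over all genes. Since this contrast chose the genes, nothing is read from these counts.

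Gsta1 had 13.3, 8.15, 18.1 and 10.5 CPM in Bmi1-deleted libraries 1 to 4, against 22.5, 31.7, 32.3 and 47.3 CPM in control libraries 1 to 4. The groups did not overlap, and Bmi1-deleted library 3 and control library 1 came nearest to each other. Mean levels were 12.5 ± 4.29 CPM in Bmi1-deleted and 33.5 ± 10.2 CPM in control libraries (SD, n = 4 each). The log2 change was −1.42 with an SE of 0.28 (edgeR, adjusted p = 0.0875), and −1.42 with the replicate block (edgeR, adjusted p = 0.00697). Without control replicate 1 it was −1.57 (edgeR, adjusted p = 0.047), the one leave-one-out fit in which Gsta1 passed.

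Gsta2 encodes another conjugating enzyme of the class, with a protein much like that of Gsta1. It had 3.97, 4.67, 10.5 and 9.41 CPM in Bmi1-deleted libraries 1 to 4, against 23.2, 18.3, 38.2 and 22.1 CPM in control libraries 1 to 4. Here too the groups did not overlap, and Bmi1-deleted libraries held 28.0% of the control mean, with 7.13 ± 3.28 CPM in Bmi1-deleted and 25.4 ± 8.75 CPM in control libraries (SD, n = 4 each). The log2 change was −1.84 with an SE of 0.35 (edgeR, adjusted p = 0.0803), and −1.89 with the replicate block (edgeR, adjusted p = 0.00102).

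Gm10639 had few counts. It had 12, 15, 12 and 13 counts in Bmi1-deleted libraries, against 55, 33, 24 and 34 counts in control libraries. The groups did not overlap, and the levels were 1.41 ± 0.0887 CPM in Bmi1-deleted and 3.91 ± 1.39 CPM in control libraries (SD, n = 4 each). The log2 change was −1.47 with an SE of 0.54 (edgeR, adjusted p = 0.481).

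Gm3776, the near copy of Gsta1, varied widely within each genotype. It had 0.331, 1.69, 11.1 and 13.3 CPM in Bmi1-deleted libraries 1 to 4, against 7.12, 0.927, 26.7 and 19.5 CPM in control libraries 1 to 4. Replicates 3 and 4 were higher than replicates 1 and 2 in both genotypes, the groups overlapped, and in replicate 2 the Bmi1-deleted library was the higher one. The log2 change was −1.04 with an SE of 1.19 (edgeR, adjusted p = 0.910). Added to Gsta1, it gave 19.1 ± 8.95 CPM in Bmi1-deleted and 47.0 ± 18.6 CPM in control libraries (SD, n = 4 each), and these sums did not overlap. Gsta2 and Gm10639 together gave 8.53 ± 3.28 CPM in Bmi1-deleted and 29.4 ± 8.17 CPM in control libraries (SD, n = 4 each), again without overlap.

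The sum over the 4 near copies, free of the division of reads between them, was 27.7 ± 12.1 CPM in Bmi1-deleted and 76.4 ± 23.2 CPM in control libraries (SD, n = 4 each). Bmi1-deleted libraries held 36.2% of the control mean, and 29.4% to 41.1% of the control library of the same number. The log2 change of this sum was −1.47 with an SE of 0.32 (edgeR, adjusted p = 0.158), and −1.51 with the replicate block (edgeR, adjusted p = 0.000139).

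**Figure D2:**
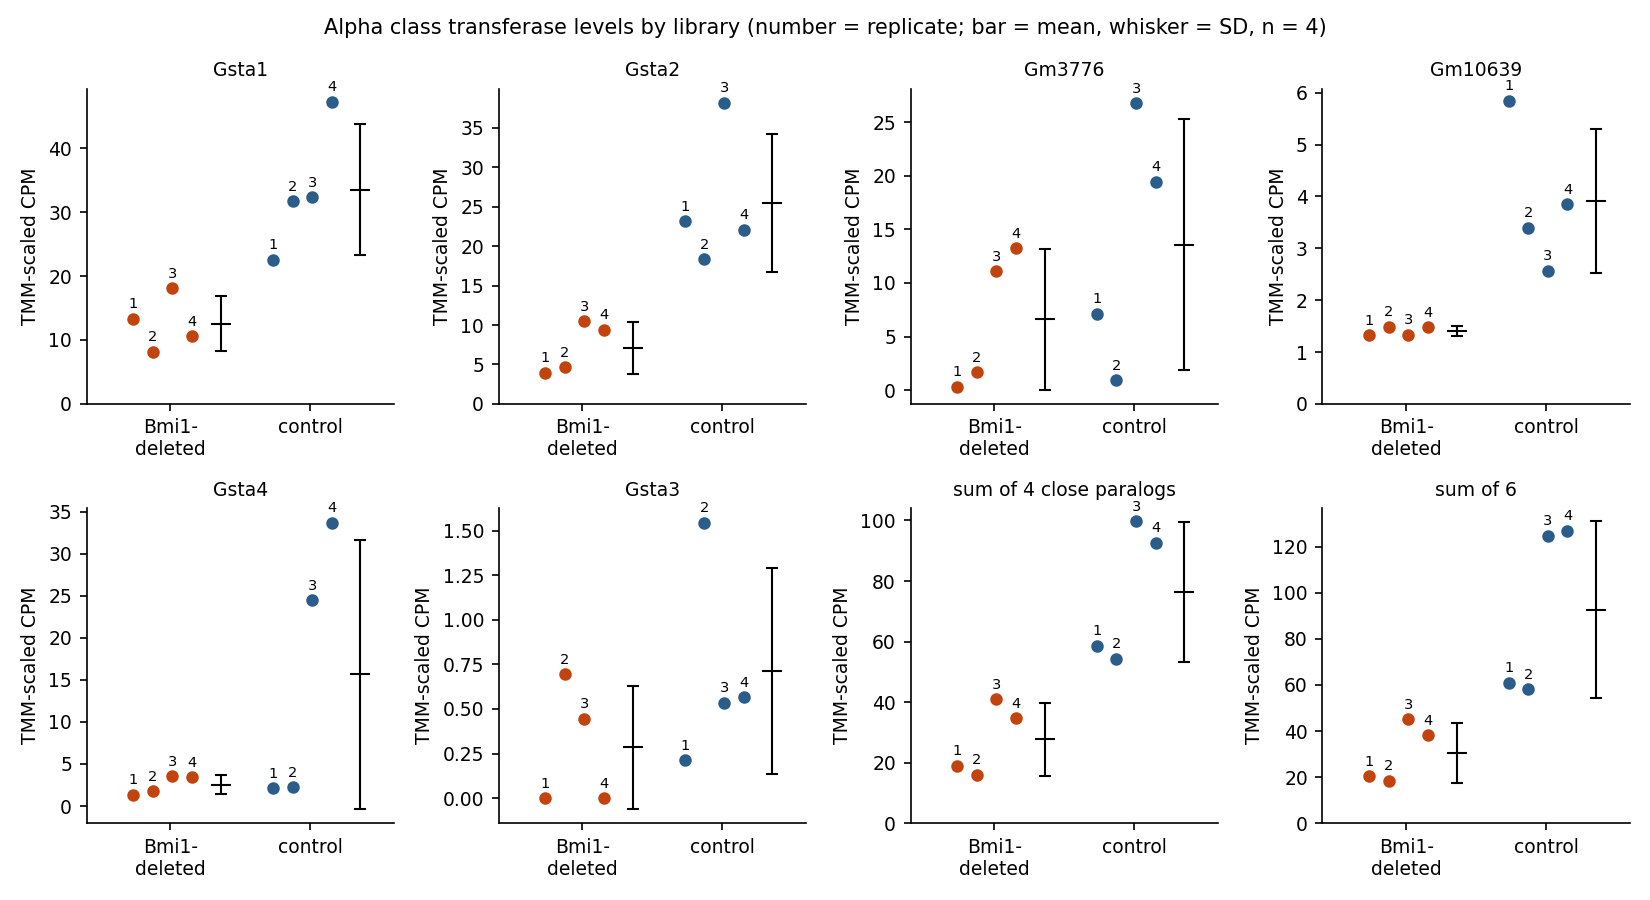
Level of each gene and of 2 sums in CPM (y axes, each with its own scale), with 1 numbered point per library and the mean and SD beside the points, Bmi1-deleted left of control. Groups are apart for Gsta1, Gsta2, Gm10639 and both sums, and overlap for Gm3776, Gsta4 and Gsta3. Control points 3 and 4 of Gsta4 stand at 24.5 and 33.7 CPM, above all its other points.

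Gsta4, the lipid aldehyde enzyme, had the largest log2 change of the class in counts, with a pair of control libraries far above all others. It had 1.32, 1.79, 3.56 and 3.40 CPM in Bmi1-deleted libraries 1 to 4, against 2.13, 2.27, 24.5 and 33.7 CPM in control libraries 1 to 4. Control libraries 1 and 2 lay within the range of the Bmi1-deleted libraries, and control libraries 3 and 4 far above it. As a percentage of the control library of the same number, Bmi1-deleted libraries held 62.3 in replicate 1, 78.9 in replicate 2, 14.5 in replicate 3 and 10.1 in replicate 4. The log2 change over all libraries was −2.63 with an SE of 0.93 (edgeR, adjusted p = 0.501). By size 4 tested genes had a larger decrease, while by edgeR p Gsta4 ranked 657 of 16011. Between replicates 1 and 2 alone it was −0.49 (edgeR, adjusted p = 0.924), and between replicates 3 and 4 alone −3.07 (edgeR, adjusted p = 0.0123). The difference between these pairs of replicates was not tested. On log2(TPM + 1), which damps low values, the change of Gsta4 was −1.35, against −2.09 for Gsta2, and on log2(TPM + 0.1) it was −1.91, against −2.17 for Gsta2 (limma). By Xist and Y-linked counts, control library 3 was female and control library 4 male.

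Gsta3 was near the limit of detection. It had 0, 7, 4 and 0 counts in Bmi1-deleted libraries 1 to 4, against 2, 15, 5 and 5 counts in control libraries 1 to 4. A count of 0, as in Bmi1-deleted libraries 1 and 4, allows up to 3 counts, for counting error only. The groups overlapped, the gene did not pass the count filter, and a difference was not detectable at this depth (−1.27 with an SE of 1.67 without the filter, edgeR adjusted p = 0.799).

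Between genes, levels were set side by side only per length, as TPM from the deposited log2 table. Gsta2 was highest of the class in all 8 libraries, at 13.4 ± 5.80 TPM in Bmi1-deleted and 58.3 ± 15.0 TPM in control libraries (SD, n = 4 each). Gsta1 came next in every library, at 6.65 ± 2.64 TPM in Bmi1-deleted and 20.2 ± 5.06 TPM in control libraries (SD, n = 4 each). Gsta1 and Gsta2 overlapped across Bmi1-deleted libraries and not across control libraries. This order rests on the lengths that the quantification assigned. A TPM of Gsta2 stood for 0.251 to 0.283 of the counts that a TPM of Gsta1 stood for, and annotated Gsta2 transcripts run from 297 to 870 bases. In plain counts Gsta1 exceeded Gsta2 in 6 of the 8 libraries. Gm3776, Gsta4 and Gm10639 came lower per length, with control means of 5.30, 5.08 and 2.59 TPM, and overlapped each other across control libraries. The class as a whole was at 24.1 ± 10.1 TPM in Bmi1-deleted and 91.8 ± 15.3 TPM in control libraries (SD, n = 4 each), which is 26.3% of the control mean.

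The make-up of the class, as shares of its summed counts, varied among libraries of the same genotype. Gsta1 supplied 44.4% ± 15.8 in Bmi1-deleted and 38.6% ± 11.8 in control libraries, and Gsta2 supplied 23.2% ± 2.57 in Bmi1-deleted and 29.4% ± 8.64 in control libraries (SD, n = 4 each). Gsta4 supplied 6.52% to 9.68% in Bmi1-deleted libraries, against 3.48%, 3.89%, 19.6% and 26.6% in control libraries 1 to 4. In each pair of replicates the sum was lower in the Bmi1-deleted library.

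**Figure D3:**
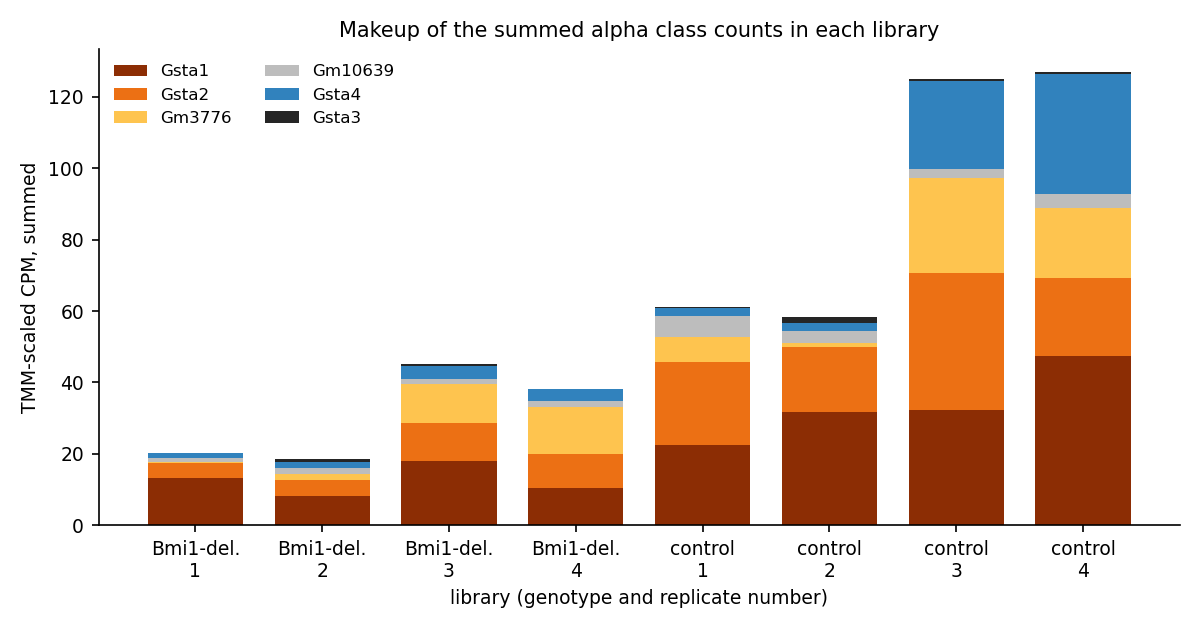
Summed level of the 6 genes in CPM (y axis) in each library (x axis), stacked by gene, the 4 Bmi1-deleted libraries left of the 4 control libraries. Bmi1-deleted bars end between 18.5 and 45.04 CPM and control bars between 58.2 and 126.9 CPM, and Gsta4 is a thick band in control libraries 3 and 4 only.

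Mean levels of some cell type markers also differed between the genotypes, though none of the 10 marker lists passed a test. With 4 libraries per group the smallest p of the exact permutation test is 0.0286. Adjusted over 10 lists, a list fully apart on its own could not have passed, so these tests decide little. Summed melanocyte markers were 4867 to 10296 CPM in Bmi1-deleted and 8640 to 14536 CPM in control libraries (exact two-sided permutation test, p = 0.129). Summed fibroblast markers were 6814 to 15891 CPM in Bmi1-deleted and 4114 to 6931 CPM in control libraries (exact permutation test, p = 0.0571, or 0.238 adjusted over 10 marker lists), so that the groups just overlapped. Col1a1, Col1a2 and Col3a1 made up nearly all of this sum. In Bmi1-deleted library 4, Pdgfra, Lum and Dcn were at 1.02, 0.34 and 1.47 CPM, each the lowest of all 8 libraries. Dpt, at 1.25 CPM there, was above every control library. Summed Schwann cell markers were 2578 to 3543 CPM in Bmi1-deleted and 1363 to 2651 CPM in control libraries (exact permutation test, p = 0.0571, adjusted 0.238). None of the 7 fibroblast, 8 melanocyte and 6 Schwann markers was at 0 in all libraries. Singly 0 of them passed (edgeR without the block), beside 0.0937% of all tested genes in either direction, so 0 calls say little about them. Basal keratinocyte markers overlapped, at 742 to 1614 CPM in Bmi1-deleted and 1147 to 1421 CPM in control libraries. The other 6 lists, for suprabasal keratinocytes, sebocytes, endothelial, mural and immune cells and adipocytes, overlapped as well, with adjusted exact permutation p between 0.238 and 0.381. The means of all 6 were higher in Bmi1-deleted than in control libraries. They were 436 against 235 CPM for suprabasal keratinocytes, 63.6 against 41.9 for sebocytes and 47.4 against 24.9 for endothelial cells. For mural cells they were 74.7 against 39.8 CPM, for immune cells 90.7 against 55.1 and for adipocytes 1.57 against 0.349. At every library number, melanocyte markers were lower in the Bmi1-deleted than in the control library. They were 5153, 4867, 8657 and 10296 CPM in Bmi1-deleted libraries 1 to 4 and 8640, 9588, 12537 and 14536 CPM in control. Fibroblast, Schwann, sebocyte and adipocyte markers were higher at every number, and the remaining lists went both ways. The exact test does not use these numbers, and no block fit is given for the lists. The part of these marker shifts in the class difference was not tested. For every 1000 counts of Dct, the 6 genes had 9.54 ± 1.22 counts in Bmi1-deleted and 18.0 ± 3.35 counts in control libraries (SD, n = 4 each), without overlap. For every 1000 counts of Mitf they had 51.9 ± 7.23 in Bmi1-deleted and 98.9 ± 20.7 in control libraries, and for every 1000 of Pmel 77.6 ± 19.9 in Bmi1-deleted and 133 ± 11.9 in control libraries (SD, n = 4 each), also without overlap. Relative to Dct, Mitf and Pmel the class stood at 52.5% to 58.3% of the control mean, against 32.9% of it relative to all counts. Relative to Tyrp1 it stood at 56.9%, and the groups overlapped. Relative to Sox10, which Schwann cells also use, it stood at 29.7% without overlap. Sox10 is on the melanocyte list but did not share the lower level of the list's sum. It had 419, 470, 448 and 516 CPM in Bmi1-deleted libraries 1 to 4, against 430, 353, 432 and 444 CPM in control libraries.

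Genes of glutathione chemistry outside the class were read in the same test. Of 88 listed genes outside the class 73 were tested, and 0 rose and 0 fell (edgeR, adjusted p under 0.05, lowest adjusted p = 0.293). Over all tested genes 0.0937% passed in either direction, so 0 calls say little about this list. An unadjusted edgeR p under 0.05 was found for 6 of the 73, beside 8.27% of all tested genes. DESeq2 and limma on TPM also passed 0 of the listed genes. Over all genes, 0.3% were called lower with DESeq2 and 0.0172% with limma on log2(TPM + 1). Without the count filter edgeR passed 1, Gstp1 (lower, adjusted p = 0.00294), beside 0.346% of all genes lower. The 73 tested genes of the list had a median log2 change of −0.05 and a range of −1.06 to 1.13, beside a median of 0.01 for all genes. With the replicate block 1 rose (beside 1.71% of all genes) and 1 fell (beside 0.706%).

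Among the other transferases the median log2 change was −0.06 over 16 tested genes. Gstp1, the pi class enzyme, was the gene that fell with the block (−0.62, edgeR adjusted p = 0.00662, and −0.64 with adjusted p = 0.293 without it). Its level was 84.1 ± 14.7 CPM in Bmi1-deleted and 131 ± 35.0 CPM in control libraries (SD, n = 4 each), without overlap. The mu class gene Gstm1 differed by less than its spread, at 45.6 ± 4.46 CPM in Bmi1-deleted and 47.4 ± 3.56 CPM in control libraries (SD, n = 4 each). So did Mgst1, a transferase of membranes, at 9.13 ± 3.67 CPM in Bmi1-deleted and 9.32 ± 4.52 CPM in control libraries (SD, n = 4 each).

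Genes that make and break down glutathione had a median log2 change of −0.22 over 13 tested genes. Gclc and Gclm, the subunits of the enzyme that limits its synthesis, had log2 changes of −0.06 and −0.27 (edgeR, adjusted p = 0.974 and 0.876). Ggct, which breaks down glutamyl peptides, had 27.3 ± 12.3 CPM in Bmi1-deleted and 16.6 ± 3.72 CPM in control libraries (SD, n = 4 each) with overlap (log2 change 0.71, edgeR adjusted p = 0.575). Anpep, a peptidase at the cell surface, had a log2 change of −0.54 (edgeR, adjusted p = 0.617). Gsr, which returns oxidised glutathione to its reduced form, had −0.41 (edgeR, adjusted p = 0.729), in a peroxidase and redox group with a median of −0.13 over 13 tested genes. Conjugate exporters had a median of −0.01 over 6 tested genes and the other lipid aldehyde enzymes −0.03 over 11, with Cbr1, a carbonyl reductase, at 0.40 (edgeR, adjusted p = 0.773).

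The 14 tested transcriptional regulators had a median log2 change of 0.05. Nfe2l2, which encodes Nrf2, the activator of antioxidant genes, had 168 ± 21.0 CPM in Bmi1-deleted and 197 ± 33.9 CPM in control libraries (SD, n = 4 each; log2 change −0.23, edgeR adjusted p = 0.746). Keap1, which keeps Nrf2 unstable, had a log2 change of −0.35 (edgeR, adjusted p = 0.808), and Maff, a partner of Nrf2 on DNA, 0.43 (edgeR, adjusted p = 0.637). Bach1, which represses Nrf2 targets, was the gene that rose with the block (0.39, edgeR adjusted p = 0.0478, and 0.40 with adjusted p = 0.420 without it). Its level was 539 ± 81.6 CPM in Bmi1-deleted and 409 ± 44.8 CPM in control libraries (SD, n = 4 each), without overlap.

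**Figure D4:**
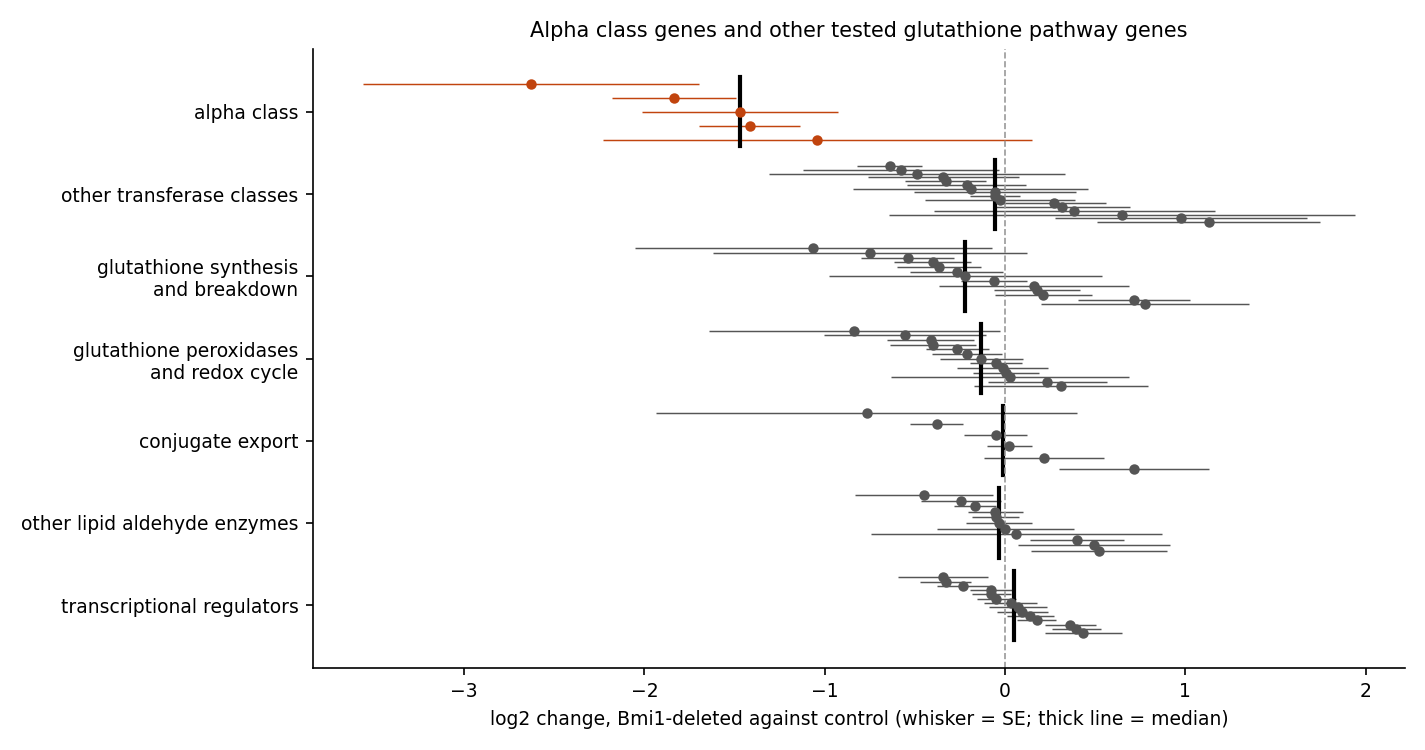
Log2 change, Bmi1-deleted against control (x axis), of the 5 tested alpha class genes (top row) and of 73 other tested genes by role, 1 point per gene with its SE and a thick line at each group's median. The alpha class median is −1.47, and the medians of the other groups lie between −0.22 and 0.05.

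The genes whose levels were most like those of Gsta1 and Gsta2 summed were sought among 9187 tested genes with a mean of at least 10 CPM. Over the 8 libraries, which include the genotype difference itself, the highest Pearson correlations of log2 CPM were those of Tpr (0.991), Fchsd2 (0.986), Sntb2 (0.969), Bnc2 (0.966) and Diexf (0.962). Their log2 changes were smaller than those of the class, from −0.15 for Tpr to −0.88 for Bnc2. After centring within genotype the order was Coq10b (0.970), Rnf181 (0.960), Bud31 (0.960), Klf15 (0.957) and Tpr (0.952). Tpr was in both lists, at 352 ± 9.12 CPM in Bmi1-deleted and 390.3 ± 5.46 CPM in control libraries (SD, n = 4 each). With 8 libraries and so many genes, such values are a description with no test.

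The direction was the same under every setting, while the calls were not. In 18 alternative settings, each log2 change of the 5 genes and the 2 sums was below 0. Gsta1 and Gsta2 passed with DESeq2 (0.3% of all genes lower), without the count filter (0.346%) and with the replicate block (0.706%). Gsta2 also passed with limma on log2(TPM + 1) (0.0172%). The sum of 6 had an adjusted p of 0.0011 between replicates 1 and 2 alone and of 0.00882 between replicates 3 and 4 alone (edgeR), with log2 changes of −1.62 in both, where 0.543% and 0.0375% of all genes were called lower.

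**Figure D5:**
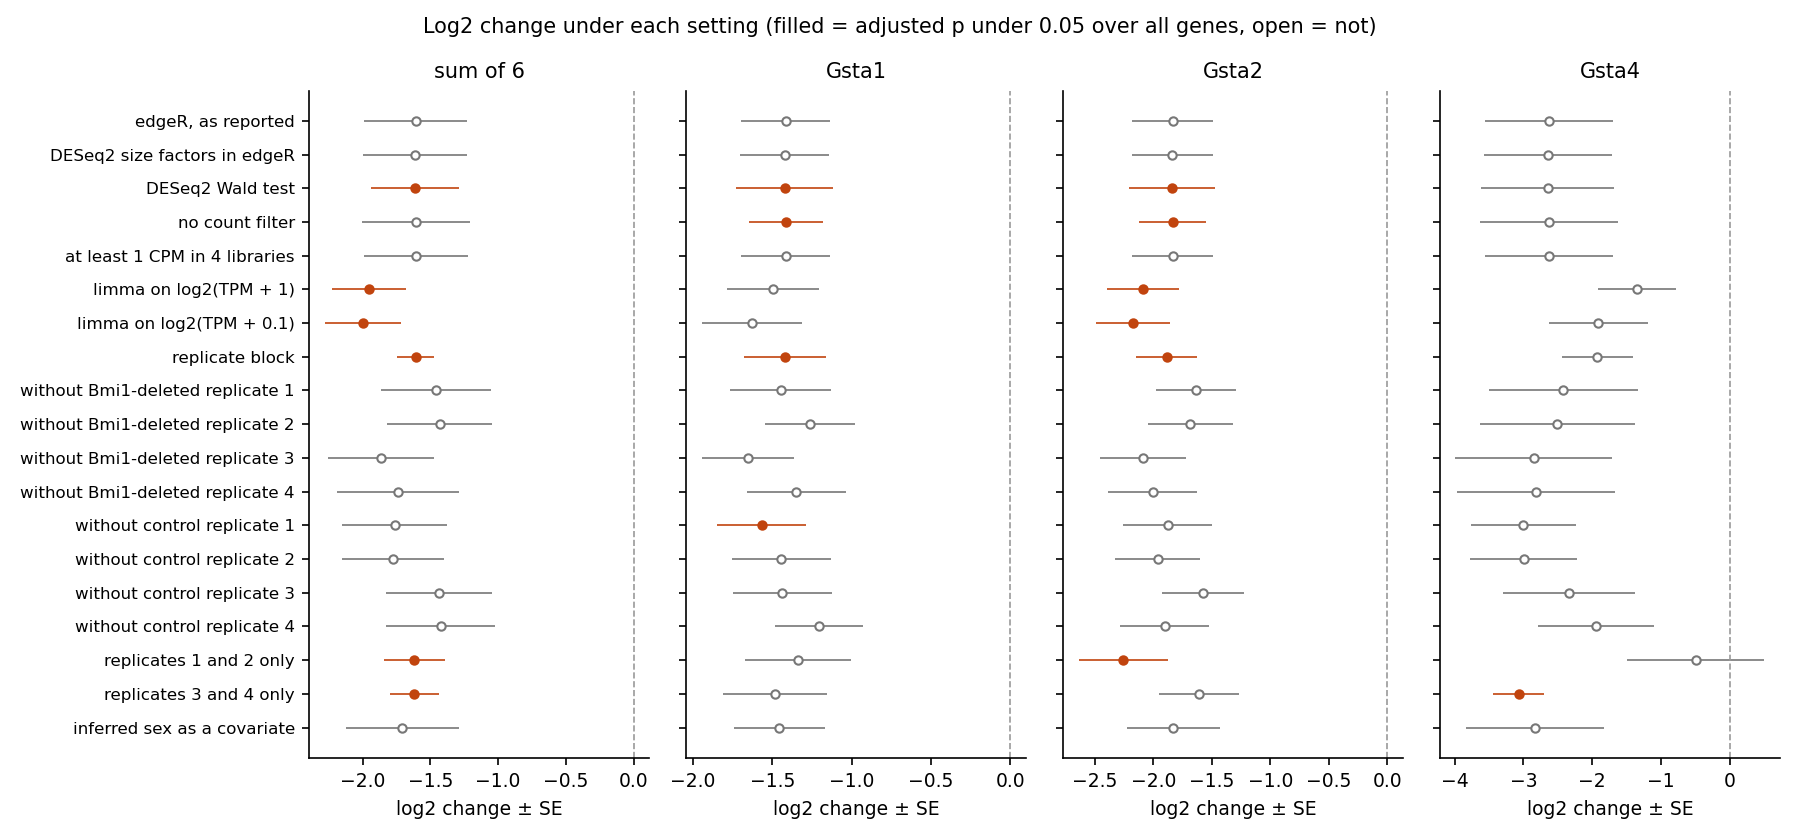
Log2 change with its SE (x axes) for the sum of 6, Gsta1, Gsta2 and Gsta4 under the reported test and each alternative (rows), filled where the adjusted p over all genes was under 0.05. The sum of 6 stays between −2.0 and −1.42, while Gsta4 runs from −3.07 to −0.49.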

How the data were processed

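RNA was taken from more than 10000 sorted cells per sample, and libraries were made from 1 ng with a stranded total RNA kit and 2 rounds of 15 PCR cycles, per the labels' protocols. No molecular identifiers are mentioned, so counts include PCR copies, and floors cover counting error only. The authors deposited estimated counts per gene as whole numbers, made with Salmon 1.2.1 on mm10 per the submitters' processing notes, and a second table, in which the authors deposited the log2 of TPM plus 1. Undoing that logarithm gave columns summing to 1e+06. No source used here gives the annotation, the strand setting or the bias correction. Gene symbols and positions came from GENCODE M21.

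Counts were filtered with filterByExpr by group (16011 genes kept), scaled by TMM and tested with the quasi-likelihood F test of edgeR 4.0.16 (robust, two-sided, all 8 libraries, Benjamini-Hochberg over all genes, threshold 0.05, R 4.3.3). SEs were taken from F statistics. Sums replaced their members in a fit of their own. Single values per library used exact permutation over 70 assignments, whose smallest p is 0.0286. Members and lists were chosen with earlier results of these data known. Named outside the class were listed pathway genes that passed or, with fewer than 6, the 3 highest and 3 lowest with a mean of at least 10 CPM, plus role examples, genotype checks and the 5 most similar genes. Deviations from the group means of libraries with the same replicate number correlated across genes at 0.124, 0.186, 0.147 and 0.180 for numbers 1 to 4, and on this ground the numbers were taken to pair the libraries, although no label says what they mark and, for 4 of 8 libraries, the closest library of the other genotype had a different number. The closest library of the other genotype always lay within numbers 1 and 2 or within numbers 3 and 4. The data thus show these 2 sets of numbers more clearly than 4 pairs. Calls gained with the block rest on taking the numbers as pairs. Libraries of 1 genotype differed by 11.7 to 34.3 times counting variance (chi-square per degree of freedom), and each was counted as 1 sample. The fits were run on simulated counts with known changes. Those counts held no replicate structure, so they do not check the pairing or the calls gained with the block. Alternatives were DESeq2 1.42.0 and its size factors, other count filters, limma 3.58.1 on log2(TPM + 1) and log2(TPM + 0.1), the replicate block, each library left out, and replicates 1 and 2 or 3 and 4 alone. Coding identity came from global alignments (Biopython 1.88) and mafft 7.526.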

Additional observations from a re-analysis of the deposited data

How the results depend on the processing

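All 126 log2 changes of the 5 tested genes and both sums, under 18 alternatives, were below 0. Changed calls are given with edgeR, DESeq2 or limma adjusted p over all genes, and the cause of each change was not tested. The replicate block gave Gsta1 −1.42 (0.00697), Gsta2 −1.89 (0.00102), the sum of 6 −1.61 (2.02e-05) and the sum of 4 −1.51 (0.000139); with it 1 pathway gene rose and 1 fell, and it changed no other call of the members, the sums or the pathway list. DESeq2 gave −1.42 (0.0014), −1.84 (0.000285), −1.61 (0.000408) and −1.47 (0.000702) for the same 4 results. Without the count filter Gsta1 was −1.42 (1.46e-06), Gsta2 −1.84 (1.92e-07), the sum of 4 −1.47 (1.32e-10) and 1 pathway gene, Gstp1, fell (0.00294). Limma on log2(TPM + 1) and log2(TPM + 0.1) gave Gsta2 −2.09 and −2.17, the sum of 6 −1.95 and −2.0, and the sum of 4 −1.92 and −1.96. Replicates 1 and 2 alone gave Gsta2 −2.26, the sum of 6 −1.62 and the sum of 4 −1.69, and replicates 3 and 4 alone gave Gsta4 −3.07, the sum of 6 −1.62 and the sum of 4 −1.36. Leaving out 1 library gave ranges of −1.65 to −1.21 for Gsta1, −2.09 to −1.57 for Gsta2, −3.0 to −1.94 for Gsta4, −1.64 to −0.48 for Gm3776, −1.63 to −1.21 for Gm10639, −1.86 to −1.42 for the sum of 6 and −1.72 to −1.28 for the sum of 4, and 0 to 0 pathway genes either way. Over all genes, 14 rose and 1 fell in the reported test. DESeq2 gave 110 and 48, no filter 259 and 121, the block 273 and 113, limma on TPM 1 and 2 at both offsets, replicates 1 and 2 alone 116 and 87, replicates 3 and 4 alone 23 and 6, and DESeq2 size factors 3 that fell. Leaving out 1 library gave 8 to 42 that rose, the most without control replicate 1 and the fewest without control replicate 2, and 0 to 7 that fell. Inferred sex as a covariate, chosen after seeing the data, changed no call of the 5 genes, the sums or the pathway list, and over all genes 15 rose and 1 fell with it. Fits on fewer libraries kept the genes of the reported filter. Depth limits Gsta3 and Gm10639, with at most 15 and 55 counts in a library.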
